A study of Mus musculus with 8 samples.

Results

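MHC class I and class II antigen presentation is followed here through 10 genes in the small intestine of suckling mice given vehicle or arsenic. The genes were taken by symbol from the table of 24411 genes: H2-K1, H2-D1, Tap1, Tap2 and Nlrc5 for class I, and Ciita, H2-Aa, H2-Ab1, H2-Eb1 and Cd74 for class II. All 10 were in the table, and all 10 passed the filter on low counts that left 15298 genes. The mice were hUGT1 transgenic animals, in the vehicle group as well as in the arsenic group, a line that carries the human UGT1 locus, which codes for UDP-glucuronosyltransferases. They were 14 days old, the labelled time was 24 h, and the treated group had received arsenic at 10 mg/kg. Each group had 4 libraries, each from the pooled RNA of 3 mice, so the spread between libraries is a spread between pools and not between single animals. The labels name neither the part of the small intestine nor the arsenic compound nor the H2 haplotype of the line.

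MHC class I molecules stand on almost every nucleated cell and show peptides from the cell's own cytosol to CD8 T cells. A heavy chain such as H2-K1 or H2-D1 folds with beta-2-microglobulin in the endoplasmic reticulum, where the TAP1 and TAP2 transporter delivers peptides cut by the proteasome, and NLRC5 switches the genes on. MHC class II molecules show peptides from engulfed material to CD4 T cells. They are pairs of an alpha and a beta chain (H2-Aa with H2-Ab1, and H2-Eb1 with its own alpha chain) that travel with the invariant chain CD74, and CIITA switches their genes on. Dendritic cells, B cells and macrophages make class II constantly, and intestinal epithelial cells make it in response to interferon gamma, with little of it in the gut before weaning.

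The promoters of these genes are known for a shared module of an X box, which contains a CRE-like site, and a Y box, on which the partners of CIITA and NLRC5 assemble. Of the 10 genes 5 had an entry in the RefSeq promoter table (GRCm38.p6), each window running from 250 bases before to 50 bases after an annotated start. They are shown, with that of B2m, because all of these genes moved the same way and because class I and class II windows can be compared letter by letter. Capitals mark matches on either strand to the Y box core GATTGG and to the CRE core TGACG.
H2-K1 (chr17:34000298-34000597, minus strand): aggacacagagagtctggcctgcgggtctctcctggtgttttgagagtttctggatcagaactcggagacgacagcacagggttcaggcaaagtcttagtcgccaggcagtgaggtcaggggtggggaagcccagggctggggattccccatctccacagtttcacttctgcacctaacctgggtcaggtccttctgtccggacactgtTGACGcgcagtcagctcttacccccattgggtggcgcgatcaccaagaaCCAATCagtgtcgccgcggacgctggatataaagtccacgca
H2-D1 (chr17:35262844-35263143, plus strand): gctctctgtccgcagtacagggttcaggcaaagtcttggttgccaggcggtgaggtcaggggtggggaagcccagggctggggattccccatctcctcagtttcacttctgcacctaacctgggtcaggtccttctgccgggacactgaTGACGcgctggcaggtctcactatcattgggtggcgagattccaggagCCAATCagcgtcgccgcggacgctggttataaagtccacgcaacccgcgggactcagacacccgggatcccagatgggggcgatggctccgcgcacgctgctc
Tap1 (chr17:34187306-34187605, plus strand): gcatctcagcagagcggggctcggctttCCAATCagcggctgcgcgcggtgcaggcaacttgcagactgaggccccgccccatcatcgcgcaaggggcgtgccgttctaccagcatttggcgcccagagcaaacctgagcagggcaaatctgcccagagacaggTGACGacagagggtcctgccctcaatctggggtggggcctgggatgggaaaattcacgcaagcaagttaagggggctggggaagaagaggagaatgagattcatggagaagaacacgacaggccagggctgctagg
H2-Aa (chr17:34287774-34288073, minus strand): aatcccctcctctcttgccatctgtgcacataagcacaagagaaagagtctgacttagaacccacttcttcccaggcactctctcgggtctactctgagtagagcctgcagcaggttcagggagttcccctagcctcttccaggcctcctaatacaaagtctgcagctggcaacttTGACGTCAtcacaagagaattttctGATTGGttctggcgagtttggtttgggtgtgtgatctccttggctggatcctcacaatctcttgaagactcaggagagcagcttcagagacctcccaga
H2-Eb1 (chr17:34305617-34305916, plus strand): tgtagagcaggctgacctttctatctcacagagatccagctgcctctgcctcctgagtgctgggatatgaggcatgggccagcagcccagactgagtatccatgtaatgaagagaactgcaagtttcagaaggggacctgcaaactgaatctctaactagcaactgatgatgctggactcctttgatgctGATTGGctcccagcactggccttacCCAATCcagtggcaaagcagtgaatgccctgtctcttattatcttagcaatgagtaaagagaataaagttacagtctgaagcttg
B2m (chr2:122147437-122147736, plus strand): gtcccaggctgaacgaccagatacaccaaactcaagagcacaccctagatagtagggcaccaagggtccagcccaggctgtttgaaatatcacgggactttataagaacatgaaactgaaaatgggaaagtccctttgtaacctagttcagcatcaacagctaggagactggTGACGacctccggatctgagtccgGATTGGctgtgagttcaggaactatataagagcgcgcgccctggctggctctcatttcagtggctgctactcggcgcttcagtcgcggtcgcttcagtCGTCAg

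The Y box core was present in all of these windows, against 16.1% of the 32851 promoters of the same length. Read as GATTGG it began 49 bases before the start in H2-Aa, 60 in H2-Eb1 and 54 in B2m. H2-Eb1 also held it as CCAATC, the other strand, 35 bases before the start. Only as CCAATC was it present in H2-D1 (53 bases before), Tap1 (222 bases) and H2-K1. In H2-K1 it lay just past the start, and a second annotated start gives a window with the same matches. In Tap1 it lay upstream of TGACG, which began 86 bases before the start. These exact matches to the Y box core share neither a direction nor a distance from the start. In H2-K1 and H2-D1 the letters CATTGG, which differ from the core in the first letter, also lie between TGACG and CCAATC. The search did not count them, and distances from TGACG were not compared. TGACG was present in all except H2-Eb1, against 20.8% of promoters, and in H2-Aa it lay on both strands, overlapping itself. The longest run of letters that H2-K1 and H2-D1 share is 47 bases, from 141 bases before the start of H2-K1 and 201 before that of H2-D1, where the other pairs of windows share at most 10. These are matches of letters in a window, and no binding was measured.

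The libraries held between 18786779 and 29417666 counts and 17701 to 18082 detected genes. Arsenic and vehicle differed broadly, with 65.3% of the tested genes called in either direction, so a call alone says little about any gene. The pools differed in sex makeup within both groups. Vehicle replicate 4 had the most Xist (1392 CPM) and almost no Y-linked counts (0.531 CPM over the listed Y genes), and arsenic replicate 3 had the least Xist (9.82 CPM) and the most Y-linked counts (199 CPM). Results are therefore also given without both pools. Enterocyte genes were at high levels in every pool and the villus protein villin (Vil1) stood at 1823 CPM with vehicle. Levels are counts scaled to library size (TMM-scaled CPM), and log2 changes are arsenic over vehicle from edgeR's quasi-likelihood test with Benjamini-Hochberg adjustment over all tested genes, called at an adjusted p below 0.05.

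All 10 MHC genes fell with arsenic, by a median of log2 -0.85, where the median over all tested genes was -0.03 and that of all genes called lower was -0.42. All 10 were called lower, as were 33.0% of the tested genes, and none was called higher, as were 32.3%. In all 10 the 4 arsenic pools lay below the 4 vehicle pools, which held for 29.3% of the tested genes. The falls ran from log2 -0.45 for H2-D1 to -1.06 for Nlrc5. In bulk tissue, fewer cells of a type and less RNA per cell cannot be told apart. In the authors' deposited table, all 10 genes also had an adjusted p below 0.05, as did 51.9% of the 18022 genes given one there. The authors' deposited table marked 7 of them at 1.5-fold and 0 at 2-fold, against 6.89% and 2.19% of those genes, leaving H2-K1, H2-D1 and Ciita unmarked at 1.5-fold. The log2 change of H2-K1 in the authors' deposited table was -0.63, past a 1.5-fold change, so the marks are not a cutoff on the fold alone, and no label or header states their rule.

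**Figure D1:**
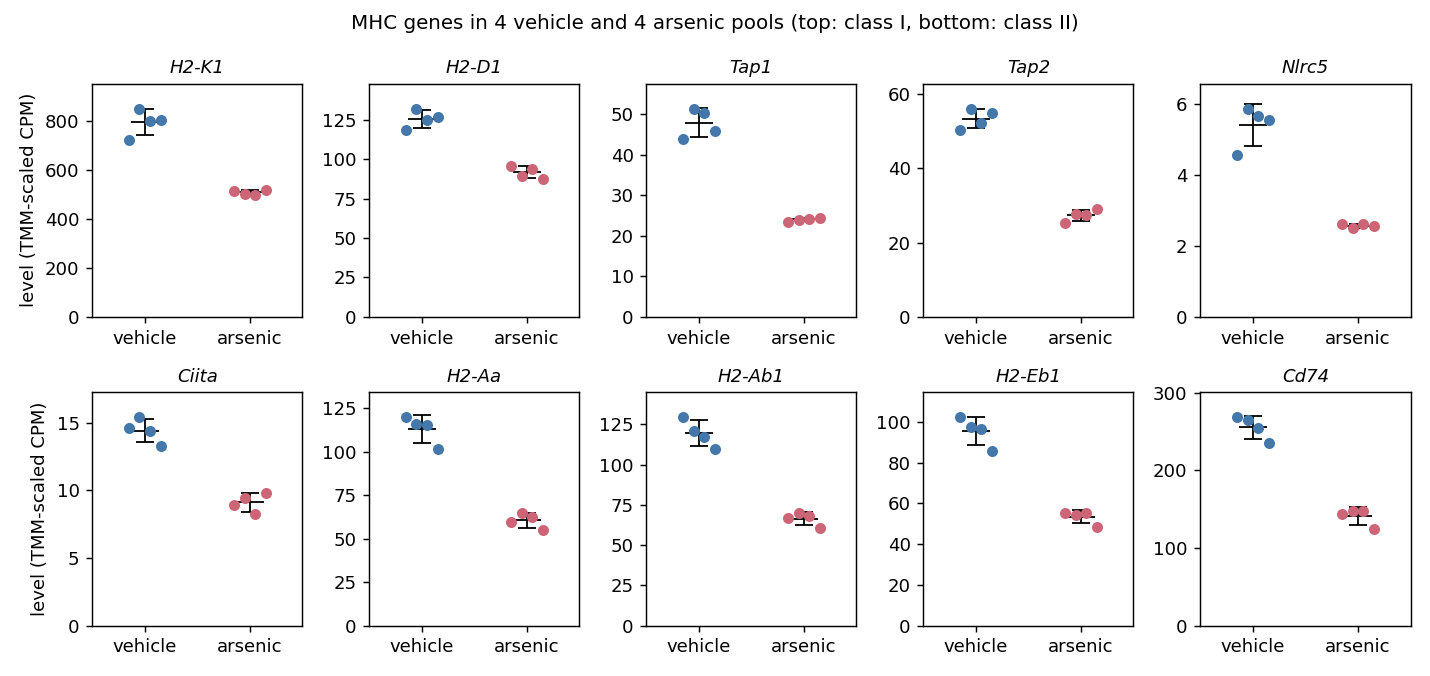
Level in TMM-scaled CPM (vertical axes, each from 0) of the 10 MHC genes in the 4 vehicle and 4 arsenic pools. Points are pools, and the black bar and whiskers are the mean and SD of n = 4. In each panel the arsenic points lie below the vehicle points, with H2-K1 between 496 and 519 CPM in arsenic and between 722 and 849 CPM in vehicle.

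The class I heavy chains were the most abundant of the class I genes, also per length, and had the smallest fitted changes. H2-K1 (ENSMUSG00000061232), the chain of the K molecule, spans 33996017 to 34000347 on the minus strand of chromosome 17. It was at 722, 849, 799 and 803 CPM in vehicle replicates 1 to 4, and at 515, 500, 496 and 519 CPM in arsenic replicates 1 to 4. The groups were well apart, and the arsenic pools were close to each other. The mean fell from 793 ± 52.9 to 508 ± 11.3 CPM (SD, n = 4), to 64.0% of vehicle (log2 -0.64, SE 0.05, edgeR adjusted p = 3.68e-08).

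H2-D1 (ENSMUSG00000073411), the chain of the D molecule, lies on the plus strand from 35262730 to 35267499. Its vehicle pools held 119, 132, 125 and 127 CPM and its arsenic pools 95.9, 89.6, 93.7 and 87.8 CPM. Its mean fell from 126 ± 5.52 to 91.8 ± 3.72 CPM, or 73.1% of vehicle, which was the smallest change among the 10 genes (log2 -0.45, SE 0.04, edgeR adjusted p = 1.92e-07). Heavy chains are close relatives, and no source used here says how reads shared between them were treated. Of the 50-base windows of the longest coding transcript, 8.79% in H2-K1 and 14.3% in H2-D1 occurred unchanged in transcripts of other genes, against 0.861% in Tap1 and none in Nlrc5 or in any of the 5 class II genes. The genes sharing a window numbered 24 for H2-K1 and 103 for H2-D1, and how many were heavy chains was not counted.

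Both subunits of the peptide transporter fell. Tap1 was at 43.9, 51.4, 50.4 and 46.0 CPM in the vehicle pools and at 23.5, 24.0, 24.3 and 24.5 CPM in the arsenic pools. Tap2 was at 50.4, 56.1, 52.3 and 54.8 CPM with vehicle and at 25.4, 27.7, 27.5 and 28.9 CPM with arsenic. Neither subunit had an arsenic pool near the lowest vehicle pool. Tap1 fell 1.99-fold (log2 -0.99, SE 0.05, edgeR adjusted p = 7.18e-10) and Tap2 1.95-fold (log2 -0.97, SE 0.05, edgeR adjusted p = 4.46e-10). Tap1 (chromosome 17, 34187553 to 34197225, plus strand) and the immunoproteasome gene Psmb9 (34181987 to 34187764, minus strand) overlap at their starts, and no source used here says whether the counting used strand. Tap2 follows Psmb8 on the same strand, from 34203527 to 34216321.

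Nlrc5, the class I transactivator on chromosome 8 (94434356 to 94527272), was the least abundant of the 10, also per length, and had the largest fitted change. It was at 4.56, 5.86, 5.65 and 5.55 CPM in the vehicle pools and at 2.61, 2.51, 2.62 and 2.55 CPM in the arsenic pools. Every arsenic pool was thus far below the lowest vehicle pool. The raw counts behind these levels were 106 to 157 with vehicle and 57 to 79 with arsenic. The mean fell 2.09-fold (log2 -1.06, SE 0.11, edgeR adjusted p = 8.90e-07), with the widest error of the 10 genes.

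The class II chains and the invariant chain fell, with log2 changes from -0.84 to -0.90. H2-Aa, the alpha chain of the A molecule, was at 120, 116, 115 and 102 CPM with vehicle and at 59.7, 64.8, 62.4 and 55.1 CPM with arsenic. H2-Ab1, its beta chain, was at 129, 121, 117 and 110 CPM with vehicle and at 66.9, 70.2, 67.9 and 60.7 CPM with arsenic. The pools of both chains kept the order of the groups with a wide gap. H2-Aa fell to 53.4% of vehicle (log2 -0.90, SE 0.06, edgeR adjusted p = 2.56e-09) and H2-Ab1 to 55.6% (log2 -0.85, SE 0.05, edgeR adjusted p = 2.97e-09).

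H2-Eb1, the beta chain of the E molecule, was at 102, 97.6, 96.7 and 85.7 CPM in the vehicle pools and at 55.4, 54.4, 55.4 and 48.7 CPM in the arsenic pools. The pseudogene of the E alpha chain in the table, H2-Ea-ps, was listed at 0 in all 8 libraries. Cd74, the invariant chain, was at 268, 265, 254 and 235 CPM with vehicle and at 143, 148, 148 and 124 CPM with arsenic. Arsenic replicate 4 was the lowest pool for both genes, and vehicle replicate 4 the lowest of its group. H2-Eb1 fell to 56.0% of vehicle (log2 -0.84, SE 0.05, edgeR adjusted p = 4.84e-09) and Cd74 to 55.2% (log2 -0.86, SE 0.06, edgeR adjusted p = 6.55e-09). The 3 chain genes lie together on chromosome 17, H2-Ab1 from 34257689 to 34269419, H2-Aa from 34282744 to 34287823 and H2-Eb1 from 34305867 to 34316674, and Cd74 lies on chromosome 18 from 60803848 to 60812652.

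Ciita, the class II transactivator on chromosome 16 (10480059 to 10528418), was at 14.6, 15.4, 14.4 and 13.3 CPM in the vehicle pools and at 8.93, 9.43, 8.23 and 9.83 CPM in the arsenic pools. The groups did not overlap. Its mean fell from 14.4 ± 0.874 to 9.10 ± 0.691 CPM, to 62.8% of vehicle (log2 -0.67, SE 0.08, edgeR adjusted p = 1.67e-06).

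Per kilobase of annotated exon, the vehicle levels were in the order H2-K1 (270 CPM per kb), Cd74 (152), H2-Eb1 (49.1), H2-D1 (48.7), H2-Ab1 (46.5), H2-Aa (29.8), Tap2 (14.1), Tap1 (8.75), Ciita (1.51) and Nlrc5 (0.636), each in CPM per kb. H2-Eb1, H2-D1 and H2-Ab1 did not differ beyond the spread of their pools, and all other neighbours in this order had pools that did not overlap. With arsenic, H2-D1 at 35.6 CPM per kb stood above H2-Eb1 at 27.5 and H2-Ab1 at 25.9, with no overlap between the pools of H2-D1 and those of H2-Eb1 or H2-Ab1. By this length H2-D1 was level with the class II beta chains in vehicle pools and above them in arsenic pools. The order of H2-D1 and the class II chains depends on the length used. The longest coding transcripts held 2102 bases in H2-D1, 1669 in H2-Eb1, 1212 in H2-Ab1 and 1128 in H2-Aa. The annotated exons used here held 2579, 1944, 2568 and 3798 bases in that order. Transcript length would thus place H2-Ab1 and H2-Aa higher relative to H2-D1. The transactivators were the lowest genes of both groups.

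**Figure D2:**
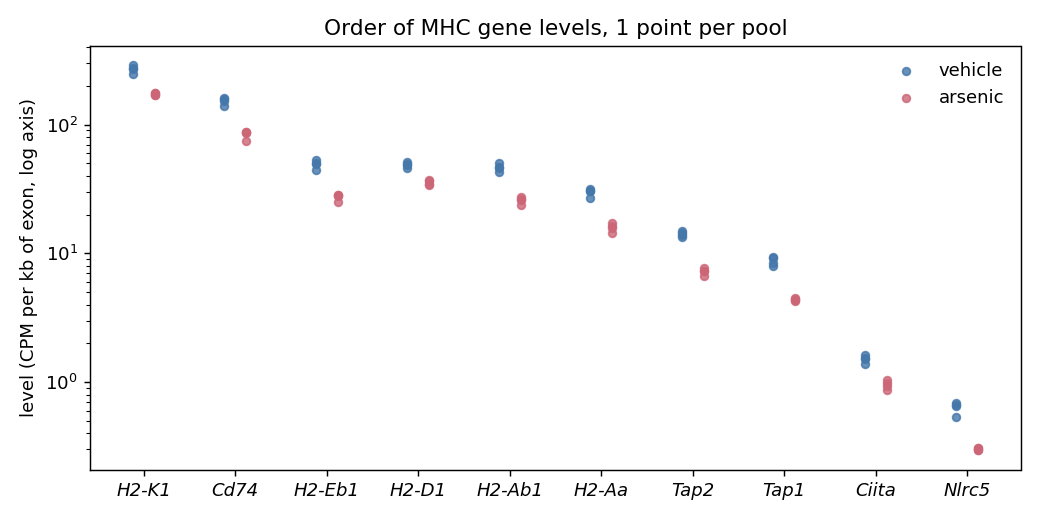
Level of the 10 MHC genes in CPM per kb of exon (log axis), in order of the vehicle mean, with 1 point per pool and color for the group. H2-K1 leads at 270 CPM per kb with vehicle, the 3 genes H2-Eb1, H2-D1 and H2-Ab1 overlap near 49.1 to 46.5 CPM per kb with vehicle, and Nlrc5 is last at 0.636.

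The ratio of a pair of genes within a library does not depend on how libraries are scaled. Over the 45 pairs of MHC genes, the ratios of 14 pairs did not overlap between the groups, a comparison added after the data were seen. How often pairs of other tested genes do so was not counted, so this number is a description only. With 4 against 4 pools the smallest two-sided p of the exact permutation test is 0.0286, and for these 14 pairs the p adjusted over all pairs was 0.0918, so no pair passed. H2-D1 entered 8 of the 14. The ratio of H2-K1 to Tap2 counts was 14.3 to 15.3 with vehicle and 17.9 to 20.3 with arsenic, and that of H2-D1 to Tap2 was 2.31 to 2.38 and 3.03 to 3.78. The ratio of H2-D1 to H2-Aa was 0.991 to 1.24 with vehicle and 1.38 to 1.61 with arsenic. Each of these ratios was higher in every arsenic pool. With no more than 14 pairs at the smallest possible p, the adjusted p could not fall below 0.05. The missing call is thus no sign that the ratios were alike.

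The order of the pools within a group differed between genes. Vehicle replicate 2 was the highest and vehicle replicate 1 the lowest vehicle pool for all 5 class I genes. For H2-Aa, H2-Ab1, H2-Eb1 and Cd74 vehicle replicate 1 was the highest and vehicle replicate 4 the lowest, while Ciita was highest in vehicle replicate 2 and lowest in vehicle replicate 4. Among the arsenic pools, replicate 4 was lowest for those 4 class II genes and also for H2-D1, and it was highest for Ciita, H2-K1, Tap1 and Tap2. These orders are descriptions of single pools and were not tested. The summed level of the listed B cell markers was 39.7, 36.7, 35.1 and 25.0 CPM in vehicle replicates 1 to 4, the same order of pools as H2-Aa, and 22.5, 25.6, 26.6 and 22.9 CPM in the arsenic pools, where the order differed from that of H2-Aa. The sums of the dendritic cell markers (48.1 and 30.4 CPM) and of the general leukocyte markers (145 and 98.0 CPM) were lowest in vehicle replicate 4 and in arsenic replicate 4, as H2-Aa was. The macrophage sum was lowest in vehicle replicate 3 (379 CPM, replicate 4 at 381 CPM) and in arsenic replicate 4 (241 CPM). The T cell sum was lowest in vehicle replicate 3 (20.2 CPM) and in arsenic replicate 1 (12.3 CPM). Endothelial markers summed lowest in vehicle replicate 4 (324 CPM) and in arsenic replicate 2 (236 CPM). The summed enterocyte markers were lowest in vehicle replicate 1 among the vehicle pools (14948 CPM, the others 16212 to 17378 CPM). The part of these markers in the order of the pools was not tested.

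**Figure D3:**
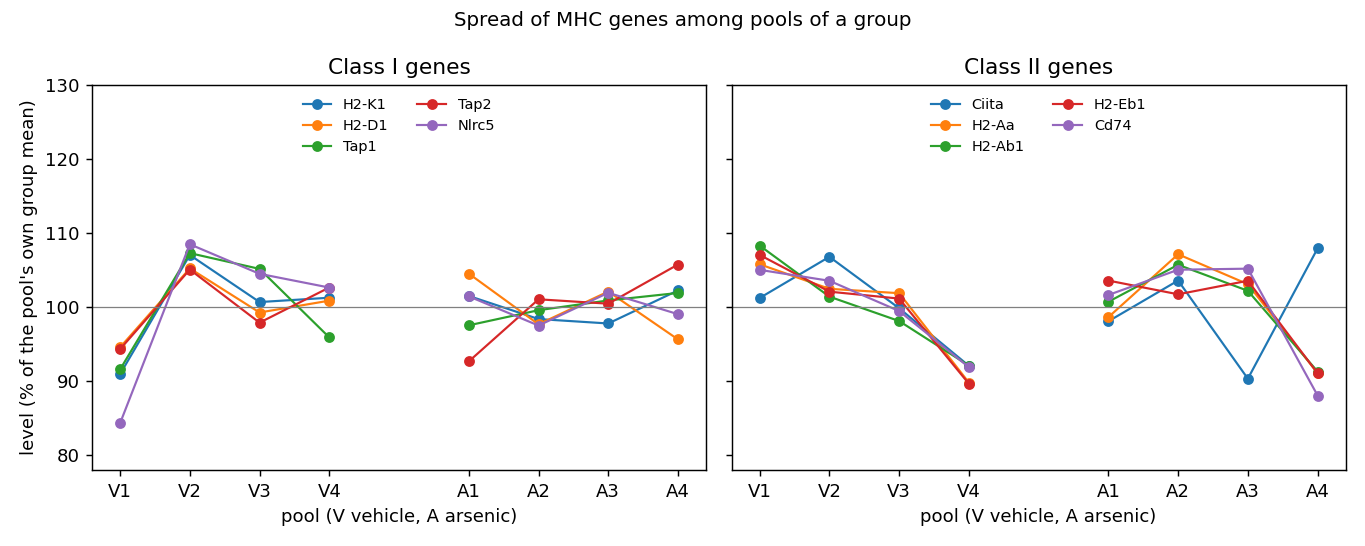
Level of each MHC gene in each pool as a percent of its own group mean (vertical axis), class I genes on the left and class II genes on the right, with V for vehicle and A for arsenic pools. Lines join the points of a gene and stand for no order of pools. Among the vehicle pools the class I genes are lowest at V1 and highest at V2, and H2-Aa, H2-Ab1, H2-Eb1 and Cd74 are lowest at V4 and at A4.

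The other class I chains were lower as well, with log2 changes from -0.14 to -1.92. Of 18 listed genes 14 were tested, of which 13 fell and none rose (median log2 -0.71). Of all tested genes 33.0% were called lower and 32.3% higher, and these shares stand beside the counts of every list that follows. B2m, the light chain needed by every class I molecule, was at 1182, 1433, 1379 and 1369 CPM with vehicle and at 472, 481, 493 and 468 CPM with arsenic. Its fall to 35.7% of vehicle (log2 -1.49, SE 0.06, edgeR adjusted p = 2.33e-11) left the groups far apart. H2-T23, which codes for the Qa-1 molecule read by NK cell receptors, fell from 141 to 37.3 CPM (log2 -1.92, SE 0.06), the largest change in the list. H2-T3, the TL antigen of the intestinal epithelium, fell from 296 to 176 CPM (log2 -0.75) and H2-Q4 from 78.1 to 42.3 CPM (log2 -0.88). H2-Q10 was not called (log2 -0.14, edgeR adjusted p = 0.354). H2-Q6 and H2-Q7 were listed at 0 in every library, and these near-identical genes are uncertain in any counting.

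Genes of peptide supply and loading changed in both directions. Of 13 listed genes, all tested, 8 fell and 5 rose (median log2 -0.31). The immunoproteasome subunits Psmb8 and Psmb9, which replace catalytic subunits of the standard proteasome, fell from 69.5 to 20.6 CPM (log2 -1.75, SE 0.08) and from 28.2 to 10.2 CPM (log2 -1.46, SE 0.08). Tapasin (Tapbp), which bridges TAP and the heavy chain, fell from 264 ± 6.86 to 102 ± 3.75 CPM (log2 -1.38, SE 0.04, edgeR adjusted p = 1.51e-12). The proteasome activator Psme1 fell by 0.67 and the peptide trimmer Erap1 by 0.25 on the log2 scale. The 5 that rose were Calr (log2 0.54), Canx (0.44) and Pdia3 (0.57), chaperones that serve glycoproteins in general besides class I, and the cytosolic peptidases Ide (0.44) and Tpp2 (0.37). These 3 chaperones held most of the summed level of the list, which was 2980 to 3199 CPM with vehicle and 3528 to 3719 CPM with arsenic.

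Most genes of class II loading were lower. Of 13 genes listed and counted, 12 were tested, of which 11 fell and none rose (median log2 -0.67). H2-DMa and H2-DMb1, the chains of the molecule that exchanges the invariant chain fragment for peptide, fell from 12.4 to 7.97 CPM (log2 -0.63, SE 0.08) and from 10.7 to 6.99 CPM (log2 -0.61, SE 0.08). Cathepsin S (Ctss), which trims the invariant chain, fell from 299 to 104 CPM (log2 -1.52, SE 0.05). Ctsh fell by 1.15 and Ctsb by 0.84 on the log2 scale, and March8, a ubiquitin ligase that removes class II and other proteins from the surface, by 0.51. Cathepsins also act in the lysosomes of the suckling enterocyte. Ifi30, the thiol reductase of antigen processing, was at 231 ± 1.05 and 227 ± 6.63 CPM and was not called (log2 -0.03, edgeR adjusted p = 0.555).

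Of the 8 factors listed for the shared promoter module, all tested, 3 fell and 3 rose (median log2 -0.01), near the 33.0% and 32.3% of all tested genes. Rfx5, the large subunit of the X box factor, fell from 24.7 to 15.5 CPM (log2 -0.68, SE 0.07, edgeR adjusted p = 7.66e-07), and its partner Rfxank fell from 29.7 to 25.6 CPM (log2 -0.21). The third subunit Rfxap was not called (log2 -0.07, edgeR adjusted p = 0.349). The Y box factor subunit Nfyc rose by log2 0.33 and the CRE-binding Atf1 by 0.29. Of the other Y box factor subunits, Nfyb rose by log2 0.20 and Nfya fell by 0.14. The CRE-binding Creb1 was not called (log2 0.05, edgeR adjusted p = 0.347).

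Genes of interferon gamma signalling, which induces both transactivators, were mostly lower. Of 12 listed genes 11 were tested, of which 9 fell and 1 rose (median log2 -0.50). Irf1, a factor that acts on Ciita and on class I genes, was at 166, 178, 176 and 176 CPM with vehicle and at 74, 75.1, 79.7 and 86.4 CPM with arsenic. These groups were far apart (log2 -1.14, SE 0.05, edgeR adjusted p = 4.87e-11). The receptor subunit Ifngr2 fell by 0.72 and Irf9 by 0.82 on the log2 scale, while the other receptor subunit Ifngr1 rose by log2 0.21. Ifng itself was near the limit of detection, with 0.0530 CPM as the vehicle mean and 0 counts in the arsenic pools, and was not tested.

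Genes listed under costimulation were also mostly lower: 5 of 7 fell and none rose (median log2 -0.54). These genes serve the second signal between antigen-presenting cells and T cells, on either cell and some of them as inhibitors. Cd274, which codes for the inhibitory ligand PD-L1, fell from 5.54 to 2.45 CPM (log2 -1.19, SE 0.13), Icosl from 26.7 to 20.8 CPM (log2 -0.36), Cd80 by 0.88 and Cd40 by 0.52 on the log2 scale.

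Most markers of the cells that carry class II moved in the same direction as the class II genes. Beside the counts of each marker list stand the 33.0% of all tested genes called lower and the 32.3% called higher. Of 9 dendritic cell markers 8 fell and none rose (median log2 -0.67), with their sum at 48.1 to 51.5 CPM with vehicle and 30.4 to 33.7 CPM with arsenic. The integrin Itgax fell by 0.67, Clec9a by 0.94, Xcr1 by 0.91 and Itgae by 0.54 on the log2 scale. Of 9 macrophage markers 7 fell and none rose (median log2 -0.48), with their sum at 379 to 389 CPM against 241 to 285 CPM. The receptor Csf1r fell by 0.56, Cx3cr1 by 0.70 and the complement genes C1qb and C1qc by 0.61 and 0.64 on the log2 scale.

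Of 7 B cell markers 6 fell and none rose (median log2 -0.55), with sums of 25.0 to 39.7 and 22.5 to 26.6 CPM that overlapped. The Siglec gene Cd22 fell by 0.58, Fcrla by 0.74, Cd79b by 0.51 and Ms4a1 by 0.55 on the log2 scale. Of these, Cd79b lost its call under 3 and Ms4a1 under 6 of the 15 alternatives. The number called dropped to 3 with any one of these pools removed: the first or the second of vehicle, and number 2 or 4 of arsenic. It dropped to 2 on removal of number 3 of vehicle, and likewise of number 1 of arsenic. Of 8 listed T cell markers 6 were tested and all 6 fell (median log2 -0.88), with sums of 20.2 to 21.6 against 12.3 to 13.6 CPM. Over the alternatives the number of T cell markers called lower ranged from 4 to 7. It was 4 under both other filters, under DESeq2, and without vehicle replicate 2 or arsenic replicate 1, 2 or 4. The coreceptors Cd4 and Cd8a fell by 0.76 and 1.11, and Cd3e and Cd3g by 1.02 and 1.00 on the log2 scale.

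Markers carried by leukocytes in general fell in 6 of 6 cases (median log2 -0.52), their sum going from 145 to 169 CPM with vehicle to 98.0 to 114 CPM with arsenic. Ptprc, which codes for CD45, fell by 0.63, Coro1a by 0.66, Laptm5 by 0.56 and Cd53 by 0.47 on the log2 scale. All 5 endothelial markers fell as well (median log2 -0.48, sums of 324 to 356 against 236 to 251 CPM), among them Kdr, Pecam1, Cdh5 and Tek by 0.49, 0.46, 0.53 and 0.48 on the log2 scale. Of 10 enterocyte genes 5 were higher and 4 lower, where 32.3% and 33.0% of all tested genes were (sums of 14948 to 17378 and 16169 to 18692 CPM). Krt8 and Krt20 rose by log2 0.69 and 0.92, and Epcam, Alpi, Cdx2 and Lct fell by 0.39, 0.33, 0.18 and 1.18 on the log2 scale. No marker in the table was at 0 in all libraries. The part of these cell types in the change of the MHC genes was not tested.

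**Figure D4:**
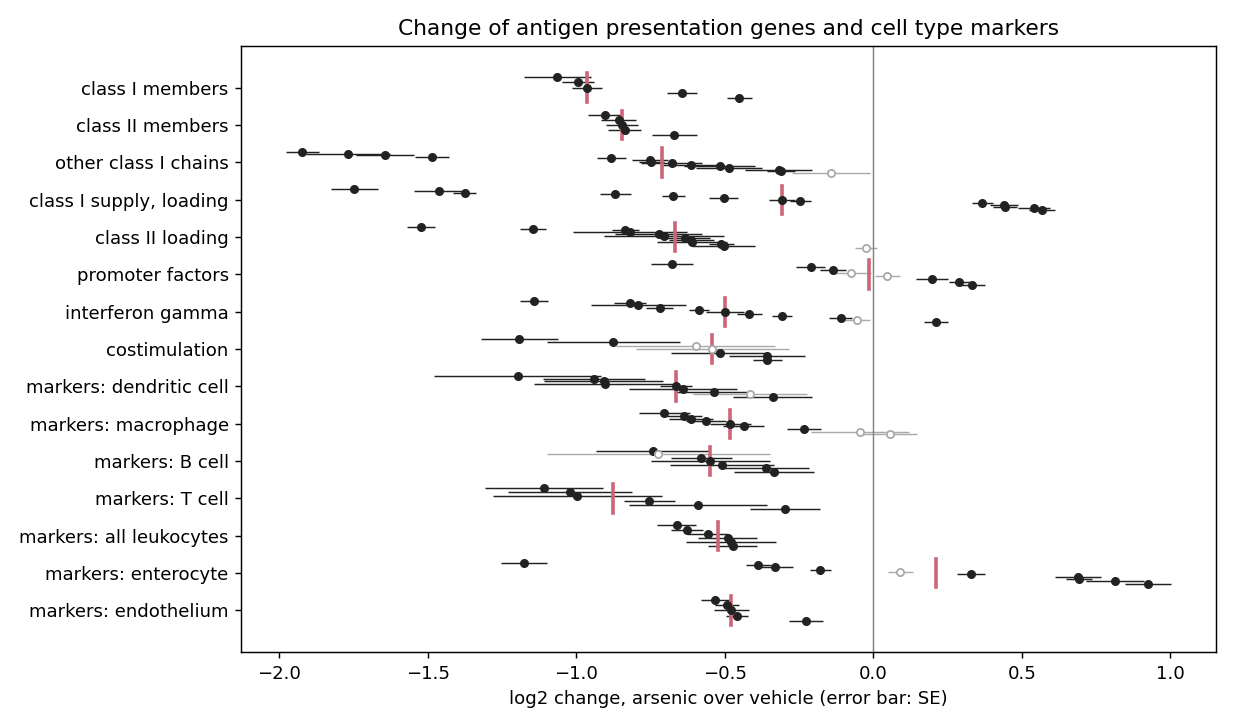
Log2 change, arsenic over vehicle, of each tested gene (points, with SE as error bars) for the MHC genes, the other lists of antigen presentation and the cell type markers. Filled points were called at an adjusted p below 0.05, and red lines are list medians. The class I and class II medians lie at -0.97 and -0.85, the dendritic cell and macrophage medians at -0.67 and -0.48, and the enterocyte median at 0.21.

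The genes nearest in pattern to the MHC genes were sought among 11346 others at 5 CPM or more on average, by the root mean square difference over the 8 libraries of log2 levels relative to the vehicle mean. Nearest to the mean profile of the 5 class I genes were Nfatc2, a T cell transcription factor (0.03), the secreted epithelial protein gene Prap1 (0.04), the pore-forming Gsdmd (0.04), the cullin Cul7 (0.04) and the membrane protein gene Itm2b (0.04). Nearest to the class II profile were Igfbp3, a binding protein of insulin-like growth factors (0.05), the endothelial Esm1 (0.06), the arginine synthesis gene Asl (0.07), cathepsin B (Ctsb, 0.07) and the galectin-binding Lgals3bp (0.07), all as root mean square log2 differences. Among the class II genes themselves H2-Ab1 and H2-Eb1 were nearest to their own mean profile (0.03 each) and Ciita farthest (0.15). Among the class I genes Tap2 was nearest (0.115) and H2-D1 farthest (0.26). Every class I gene was thus farther from the class I mean profile than the 5 genes named as nearest to it. Those genes are near the mean of the class I genes and not near any one of them by this measure.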

How the data were processed

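RNA of the small intestine was measured in 8 libraries. Per the labels' protocols, TRIzol extraction was followed by Illumina's stranded mRNA library kit. The submitters' processing notes name the mm10 build with DESeq2 1.34.0, STAR 2.7.9a and bcl2fastq 2.20. No source used here names the counter, its annotation or its strand setting. The authors deposited raw counts per gene symbol, from which every test was made, with a total of 18786779 to 29417666 counts per library. The authors' deposited table also holds log2 fold changes with p-values and adjusted p-values, quoted where named. Groups came from the treatment label, replicate numbers are names only, and p-values judge the difference between the groups against the spread between pools.

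Genes were kept by filterByExpr (minimum count 10, minimum total 15) and scaled by TMM. Arsenic was compared with vehicle by edgeR 4.0.16 (glmQLFit and glmQLFTest, two-sided, R 4.3.3) on all 8 libraries with group as the only term, adjusted over 15298 genes at 0.05. The SE is the log2 change divided by the root of the test's F. The test was checked on simulated counts. Log2 levels for likeness used a prior count of 2. Gene spans and exon lengths came from GENCODE M21 (GRCm38, the assembly of mm10). Alternatives used DESeq2 1.42.0, limma 3.58.1 (voom), other scalings, other filters and left-out libraries. No library was a copy of another (the chi-square of 2 libraries of a group, divided by its degrees of freedom, was 3.06 to 14.0), so each counted as a sample.

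The genes and lists were chosen with earlier results of these data known. Named were the MHC genes, a fixed panel of 16 genes, up to 4 genes of smallest p per list with those called against its direction, and the 5 nearest genes of each profile. H2-Q6, H2-Q7, H2-Q10, H2-Ea-ps, Ifng, Xist, Vil1, Cd68, Cd163, Nfya, Nfyb and Creb1 were named after their values were seen. One gene of the panel is not reported here.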

Additional observations from a re-analysis of the deposited data

Results flagged for a closer look

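In 8 of the 168 groups of 4 pools looked at over 84 named genes, 1 pool stood apart from the other 3 by more than Dixon's 95% critical value, and chance flags about 1 in 20 groups. Among the MHC genes this was H2-Eb1, at 48.7 CPM in arsenic replicate 4 against 54.4 to 55.4 CPM in the other arsenic pools. Vehicle replicate 1 was low for Irf1 (165.6 CPM, the others 176.2 to 178.0), Ifngr2 (206.2 CPM, the others 226.1 to 228.7), Alpi (2441 CPM, the others 2706 to 2741) and Cul7 (67.5 CPM, the others 73.9 to 74.3). Arsenic replicate 3 was high for Ptprc (35.9 CPM, the others 32.8 to 33.1) and low for Alpi (1893 CPM, the others 2180 to 2197). Arsenic replicate 1 was high for Krt8 (2525 CPM, the others 2380 to 2395).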

How the results depend on the processing

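All 10 MHC genes stayed lower and past the threshold under each of the 15 alternatives, which were 2 other scalings, 2 other filters, DESeq2, limma-voom, each library left out in turn, and vehicle replicate 4 left out together with arsenic replicate 3. Their log2 changes ranged from -0.41 to -0.48 for H2-D1, from -0.60 to -0.69 for H2-K1, to as low as -1.14 for Nlrc5 and from -0.79 to -0.92 for Cd74, and the largest adjusted p of any MHC gene was 2.80e-05 (Nlrc5, without both pools). The numbers of all genes called higher (4944) and lower (5053) stayed within 1.5 times of those values, at 4626 and 5408 with upper-quartile scaling. Of the counts of the other lists, that of B cell markers called lower changed by more than 1.5 times, from 6 to between 2 and 6 with 1 library left out, and was 7 without both pools. Of 1259 values of named genes under the alternatives, 1250 kept their direction and side of the threshold and 9 lost the call, all of them Cd79b (3) and Ms4a1 (6), and none reversed. The cause was not tested. No paired analysis was possible because the labels give no replicate numbers that are shared between the groups. Depth limits the low genes: Nlrc5 had 57 to 157 counts per library, and Ifng too few to be tested.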
